A study of Mus musculus with 9 samples.

Results

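The genes described here encode 10 enzymes that handle hydrogen peroxide and superoxide: the superoxide dismutases Sod1 and Sod2, the catalase Cat, the glutathione peroxidases Gpx1, Gpx3 and Gpx4, the peroxiredoxins Prdx1, Prdx2 and Prdx5, and the thioredoxin reductase Txnrd1. They were chosen by name, as 10 of the 52636 genes in the count table, and all 10 had counts. Thyrocytes make hydrogen peroxide at their apical surface with dual oxidases, because thyroid peroxidase needs it to iodinate thyroglobulin. Superoxide dismutases turn superoxide into hydrogen peroxide. Catalase, the selenium-dependent glutathione peroxidases and the peroxiredoxins turn hydrogen peroxide into water, the last with electrons that thioredoxin reductase passes on from NADPH through thioredoxin.

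The cells came from thyroids of male C57BL/6 mice, an inbred wild-type strain, profiled by droplet single-cell RNA sequencing 7 days after 1 intraperitoneal injection of antibody. The control group RW received an isotype control antibody against ragweed (40 mg/kg), the group aJ1aJ2 received antibodies that block the Notch ligands Jag1 and Jag2 (20 mg/kg each), and the group aN1aN2 received antibodies that block the receptors Notch1 (5 mg/kg) and Notch2 (10 mg/kg). Mice were 10 to 14 weeks old per the treatment protocol and 10 to 12 weeks per the series design. Each group had 3 samples and each sample was a pool of 6 mice, so a p-value here measures the spread between pools. The injection was systemic, so a change in 1 cell label is not shown to come from Notch blockade in that label. Sample numbers in the titles fall into 3 ranges, called series A (RW 3 and aJ1aJ2 1, numbered here because their titles carry no replicate number), B (RW 1, RW 2, aJ1aJ2 3 and aJ1aJ2 4) and C (all 3 aN1aN2 samples). Receptor blockade and series C therefore cannot be told apart in any comparison below.

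In GRCm38 coordinates (GENCODE M21 gene bounds), Sod1 (ENSMUSG00000022982) lies at chr16:90220754-90226329 on the plus strand, Sod2 (ENSMUSG00000006818) at chr17:13006846-13040063 on the plus strand and Cat (ENSMUSG00000027187) at chr2:103453849-103485160 on the minus strand. Gpx1 (ENSMUSG00000063856) lies at chr9:108338903-108340343, Gpx3 (ENSMUSG00000018339) at chr11:54902453-54910377 and Gpx4 (ENSMUSG00000075706) at chr10:80047166-80056439, all on the plus strand. Prdx1 (ENSMUSG00000028691) lies at chr4:116685544-116700822, Prdx2 (ENSMUSG00000005161) at chr8:84969587-84974834 and Txnrd1 (ENSMUSG00000020250) at chr10:82833951-82897712, all on the plus strand, and Prdx5 (ENSMUSG00000024953) at chr19:6906697-6910106 on the minus strand. The authors' use of strand in counting is not given in the sources used here, so reads could be shared where genes overlap. Prdx5 (23088 UMIs in all cells) overlaps Trmt112 (5423 UMIs), Prdx2 (17337) overlaps Junb (3960) and Rnaseh2a (1064), Sod1 (12211) overlaps Scaf4 (969), and Txnrd1 (2731) overlaps Eid3, Gm38560 and Gm47073, which held 23, 10 and 5 UMIs. Gpx4 (35179 UMIs) has a near-identical copy, Gpx4-ps2, that held 2868 UMIs, so reads of this pair may be split. Prdx1 held 39868 UMIs, Gpx1 21574, Sod2 8797, Gpx3 8358 and Cat 3608.

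The promoters of Prdx1, Txnrd1 and Sod1 are shown because they carry the same short motif, while the genes behind them moved in opposite directions in thyrocytes after receptor blockade (Prdx1 and Txnrd1 lower, Sod1 higher, below). The capitals mark a match to the antioxidant response element core, TGACNNNGC or its reverse complement GCNNNGTCA, the type of site that the factor NRF2 binds. The sequences are from RefSeq (GRCm38.p6), 5′ to 3′ on the gene's strand, from 250 bases before to 50 bases after an annotated start, and lie at chr4:116685349-116685648 (Prdx1), chr10:82858956-82859255 (Txnrd1) and chr16:90220512-90220811 (Sod1), all on the plus strand.
Prdx1: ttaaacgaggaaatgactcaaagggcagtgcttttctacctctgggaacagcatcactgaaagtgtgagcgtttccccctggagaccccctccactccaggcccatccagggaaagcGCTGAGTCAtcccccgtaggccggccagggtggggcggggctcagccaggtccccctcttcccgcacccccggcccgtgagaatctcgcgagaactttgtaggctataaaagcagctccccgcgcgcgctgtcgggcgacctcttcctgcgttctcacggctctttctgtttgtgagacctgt
Txnrd1: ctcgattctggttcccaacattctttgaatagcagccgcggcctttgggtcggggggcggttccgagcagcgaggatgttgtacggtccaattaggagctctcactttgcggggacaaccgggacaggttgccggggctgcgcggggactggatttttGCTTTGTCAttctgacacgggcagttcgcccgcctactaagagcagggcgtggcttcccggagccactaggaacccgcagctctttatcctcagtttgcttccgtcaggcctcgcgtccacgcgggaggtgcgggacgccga
Sod1: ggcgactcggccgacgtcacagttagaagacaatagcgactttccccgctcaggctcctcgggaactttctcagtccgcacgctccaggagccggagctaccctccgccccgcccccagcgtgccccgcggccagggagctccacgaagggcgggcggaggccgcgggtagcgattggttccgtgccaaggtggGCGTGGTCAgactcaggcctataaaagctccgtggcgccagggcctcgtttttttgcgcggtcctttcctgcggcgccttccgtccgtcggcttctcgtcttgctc
The motif's first base lies at -133, -92 and -56 from the start used for Prdx1, Txnrd1 and Sod1. Txnrd1 has other annotated promoters, at chr10:82833701-82834000 and chr10:82860091-82860390, and neither holds the motif. RefSeq lists 15 promoters for the 10 enzymes, all matched by symbol, and 3 of these 15 hold the motif on either strand, beside 12.4% of all 32851 mouse promoters of the same length. The FOXO site GTAAACA (reverse complement TGTTTAC) was in 0 of the 15 and in 3.65% of all promoters. A match describes letters in a window, and no match says only that these letters are not in that window.

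The table held 10186 cells and 63121420 unique molecular identifiers (UMIs, 1 per captured RNA molecule), with 583 to 1805 cells and 3013324 to 11880793 UMIs per sample and 16 cell labels given by the authors. In RW, label Th1 had all 8 thyrocyte markers at a summed 92544 CPM (UMIs scaled to a common total per sample and label), F had all 5 fibroblast markers at 32876 CPM, and EC1 to EC4 had endothelial markers at 4158 to 15114 CPM. EC3 also held mural markers at 3503 CPM. Th3 held thyrocyte markers at 81236 CPM but also all 4 C cell markers at 49172 CPM, with a median of 987 UMIs per cell, so it is named by its label alone. Globins made up 93.9% of the UMIs of Eryth1 and 96.7% of those of Eryth2. The 15 barcodes found in more than 1 sample covered 30 cells. Th1 cells of aN1aN2 were shallower, with medians of 5737 to 7558 UMIs per cell against 12535 to 22558 in RW and 9968 to 15314 in aJ1aJ2.

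Across the labels of the control thyroids, 7 of the 10 transcripts were highest in Th1 or Th3, and the others, Gpx1, Gpx3 and Cat, were highest in M, F and S. By the mean of log2(CPM + 1) per cell Gpx1, Prdx2 and Cat were highest in Th1 instead. With at least 50 cells per sample and label, F and S had too few RW samples and dropped out. Of the labels left, Gpx3 was highest in Th3 and Cat in Th1. Levels in these paragraphs are CPM on the plain total of each sample and label, as mean ± SD over the RW samples with at least 20 cells of the label, for 12 labels (n = 3, and n = 2 for S and EC2). How the labels were made is not given in the sources used here, so the levels are a description without a test. They are compared between labels, never between genes.

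Of the dismutases, Sod1, the cytosolic copper-zinc enzyme, was at 295 ± 24.5 CPM in Th1, 260 ± 45.0 in Th3 and 185 ± 10.4 in EC4, with T1, a label with T and NK cell markers, lowest outside the erythroid labels at 42.8 ± 26.2. Sod2, the mitochondrial manganese enzyme, was at 268 ± 15.7 in Th1, 195 ± 77.2 in Th3 and 132 ± 45.6 in S, and lowest outside the erythroid labels in F, at 54.6 ± 20.2. The sample ranges of Th1 and Th3 overlapped for both enzymes, so their order is not resolved. The sample range of Sod1 in Th1 and Th3 lay above that in EC4, the next label.

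Cat, the peroxisomal catalase, was at 132 ± 3.06 CPM in S, whose markers are those of Schwann cells, at 77.6 ± 8.88 in Th1 and at 64.4 ± 1.10 in F. The other 9 labels were lower, at 3.90 ± 3.63 in Eryth1 to 54.5 ± 40.1 in Th3, and most of their sample ranges overlapped.

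Gpx1, the general cytosolic glutathione peroxidase, was at 927 ± 257 CPM in M, a label with macrophage markers, at 572 ± 109 in Eryth2 and at 438 ± 42.6 in EC3. Th1 followed after F at 294 ± 11.2, and its range overlapped those of F and T1 beside it. Gpx3, the secreted glutathione peroxidase, was at 986 ± 430 in F and 283 ± 122 in Th3, then at 24.1 ± 3.77 in Th1 and 17.9 ± 16.4 in EC3. The Th3 level rested on few cells: 10 to 14 per RW sample, of 83 to 193, had a Gpx3 UMI. A single cell held 50.8, 63.9 and 33.3% of the Gpx3 UMIs in RW 1, 2 and 3. That cell held 11386, 9099 and 0 UMIs of Calca, the calcitonin gene of C cells. No RW sample had a Gpx3 UMI in EC4, Eryth2 or S. Gpx4, the enzyme that reduces lipid hydroperoxides in membranes, was at 1136 ± 212 in Th1, 983 ± 288 in Th3 and 783 ± 31.6 in S, followed by EC1 at 474 ± 101.

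Prdx1, a cytosolic peroxiredoxin, was at 1105 ± 31.6 CPM in Th1 and 1086 ± 134 in Th3, and 785 ± 19.2 in EC1. Prdx2, another cytosolic peroxiredoxin that is abundant in red cells, was at 434 ± 47.1 in Th3, 412 ± 27.4 in Th1 and 371 ± 124 in S, with overlapping ranges, and at 238 ± 24.6 in EC3. Prdx5, which works in mitochondria, peroxisomes and cytosol, was at 852 ± 23.2 in Th1 and 782 ± 135 in Th3, then at 256 ± 111 in M and 38.4 ± 23.8 in EC4. Txnrd1, the cytosolic thioredoxin reductase, was at 71.7 ± 8.86 in Th1, 60.4 ± 28.5 in Th3 and 58.8 ± 8.12 in EC4, and ranges overlapped between neighbours from Th1 down to Eryth1.

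**Figure D1:**
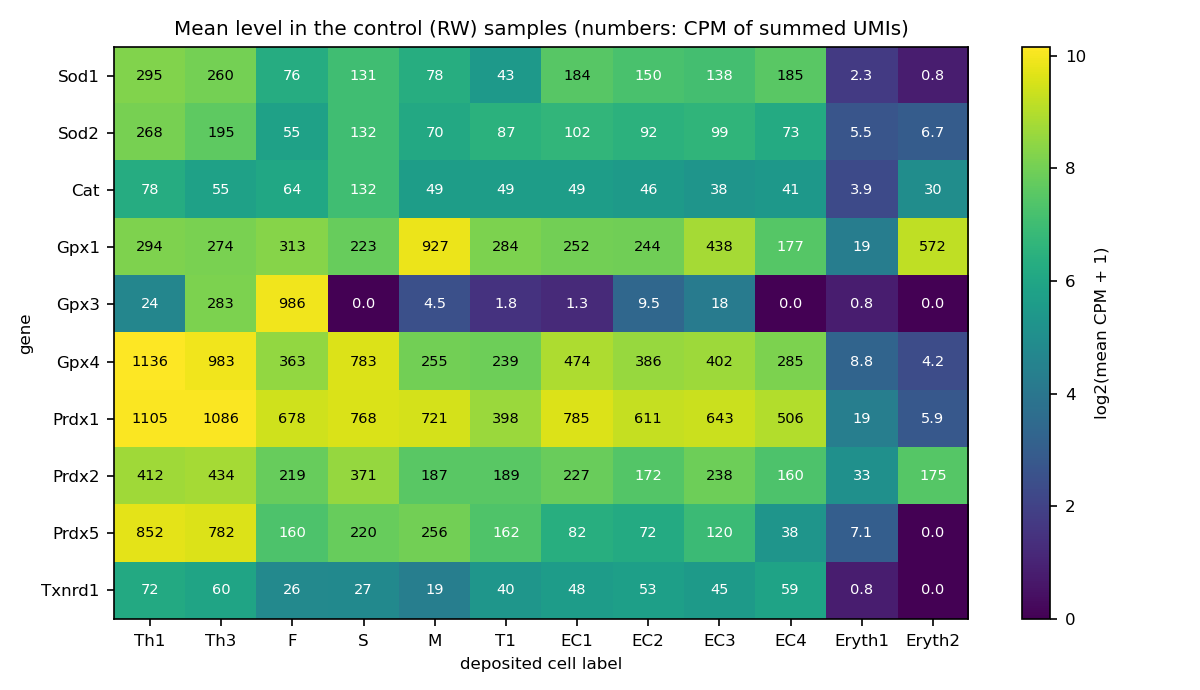
Levels of the 10 transcripts in 12 cell labels of the RW samples, as log2(CPM + 1) of the mean CPM, with rows for enzymes, columns for labels and colour for the level. Gpx4, Prdx1, Prdx2, Prdx5, Txnrd1, Sod1 and Sod2 are brightest in Th1 or Th3, Gpx1 in M (927 CPM) and Gpx3 in F (986 CPM).

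The denominator mattered for the red-cell labels. On totals without globins and Tg, Eryth2 became the highest label for Gpx1 at 17779 ± 3852 CPM, for Prdx2 at 5412 ± 579 and for Cat at 938 ± 229, a label in which globins held 96.7% of the UMIs. Labels with too few cells per sample for a mean were pooled over all 9 samples. SM, with mural markers, had Gpx3 at 439 CPM (exact 95% Poisson interval 393 to 488, counting error only), and P, with parathyroid markers, had Prdx2 at 340 CPM and Gpx3 at 0.967 CPM (1 UMI).

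Over the 12 labels and 6771 genes with at least 50 CPM in some label, the genes whose pattern was most like each enzyme were named by Pearson's r of log2(CPM + 1), as a description over labels that share libraries and depth. For 9 of the enzymes the likest were Got2 for Sod2 (r = 0.99), Glo1 for Cat (0.95), Mpp1 for Gpx1 (0.86), Egfr for Gpx3 (0.92), Snhg3 for Gpx4 (0.99), Rps27l for Prdx1 (0.99), Glrx5 for Prdx2 (0.96), Zbtb8os for Prdx5 (0.99) and Zranb1 for Txnrd1 (0.99). Among the enzymes themselves r ran from 0.20 for Gpx1 with Gpx3 to 0.98 for Gpx4 with Prdx1. The 12 labels include Eryth1 and Eryth2, where Gpx4 was at 8.75 and 4.17 CPM against 239 to 1136 in the others. Genes that are low in both red-cell labels can therefore reach a high r, and no r without these labels is given here.

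The next question was what receptor blockade does to these transcripts in thyrocytes. In Th1, Sod1 rose 1.79-fold and Cat rose 1.27-fold in aN1aN2 against RW, while Sod2, Gpx4, Prdx1, Prdx2, Prdx5 and Txnrd1 fell to between 0.574 and 0.716 of the RW level. All 10 enzymes passed the filter on low counts, and 8 of 10 were called at an adjusted p under 0.05, beside 34.4% of the 10627 genes tested, of which 17.1% were called higher and 17.3% lower. Among the enzymes 2 were called higher and 6 lower, with a median log2 change of -0.51 beside 0.02 over all genes. From here on, levels within a label are CPM on totals adjusted by TMM (trimmed mean of M-values), samples are named in the order 1, 2, 3 for RW and aN1aN2 and 1, 3, 4 for aJ1aJ2, and adjusted p-values come from the quasi-likelihood test of edgeR, adjusted after Benjamini and Hochberg over all genes tested. The Th1 sums rested on 84 to 180 cells per RW sample, 90 to 193 per aJ1aJ2 sample and 62 to 158 per aN1aN2 sample.

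The 2 dismutases moved in opposite directions. Sod1 was at 323, 287 and 284 CPM in the RW samples and at 529, 511 and 562 in the aN1aN2 samples. Every aN1aN2 sample lay above every RW sample, with a log2 change of 0.84 (SE 0.10, adjusted p 1.18e-05). Sod2 was at 268, 254 and 289 CPM in RW and at 174, 163 and 228 in aN1aN2. The groups did not overlap, with aN1aN2 3 nearest to the controls, and the log2 change was -0.54 (SE 0.12, adjusted p 0.00301).

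Cat was at 83.9, 82.3 and 68.8 CPM in RW and at 95.5, 92.1 and 111 in aN1aN2. The groups did not overlap, but the log2 change of 0.34 (SE 0.12, adjusted p 0.0448) was close to the threshold. Of 12 alternatives, 10 lost it, DESeq2 included (adjusted p 0.124), and the adjusted p ranged from 0.0373 to 0.375 over all 12.

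Gpx4 was at 950, 1104 and 1395 CPM in RW and at 650, 684 and 646 in aN1aN2. All aN1aN2 samples were below all RW samples, with RW 3 highest of all, and the log2 change was -0.80 (SE 0.17, adjusted p 0.00226), or -0.64 without RW 3 (adjusted p 0.0144). Its copy Gpx4-ps2 had a log2 change of -0.41 (SE 0.30, adjusted p 0.313). Gpx1 was at 282, 296 and 311 CPM in RW and 302, 299 and 389 in aN1aN2, groups that overlapped, with a log2 change of 0.14 (SE 0.11, adjusted p 0.343).

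Of Prdx1, Prdx2 and Prdx5, Prdx1 had the largest log2 change. It was at 1136, 1087 and 1127 CPM in RW and at 645, 637 and 684 in aN1aN2, a gap wider than the range within either group, at -0.77 (SE 0.10, adjusted p 3.59e-05). Prdx2 was at 404, 394 and 452 CPM in RW and at 279, 265 and 323 in aN1aN2 (-0.54, SE 0.11, adjusted p 0.00118). Prdx5 was at 826, 869 and 890 CPM in RW and at 572, 573 and 710 in aN1aN2 (-0.48, SE 0.10, adjusted p 0.00237). For both, all aN1aN2 samples were below all RW samples and aN1aN2 3 was the highest of its group. Txnrd1, which recycles the thioredoxin that peroxiredoxins use, was at 81.9, 67.5 and 67.9 CPM in RW and at 45.5, 50.9 and 45.9 in aN1aN2, again without overlap (-0.61, SE 0.14, adjusted p 0.00267). The calls of Sod1, Sod2, Gpx4, Prdx1, Prdx2, Prdx5 and Txnrd1 were made in each of the 12 alternatives, the thinning to equal totals included.

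**Figure D2:**
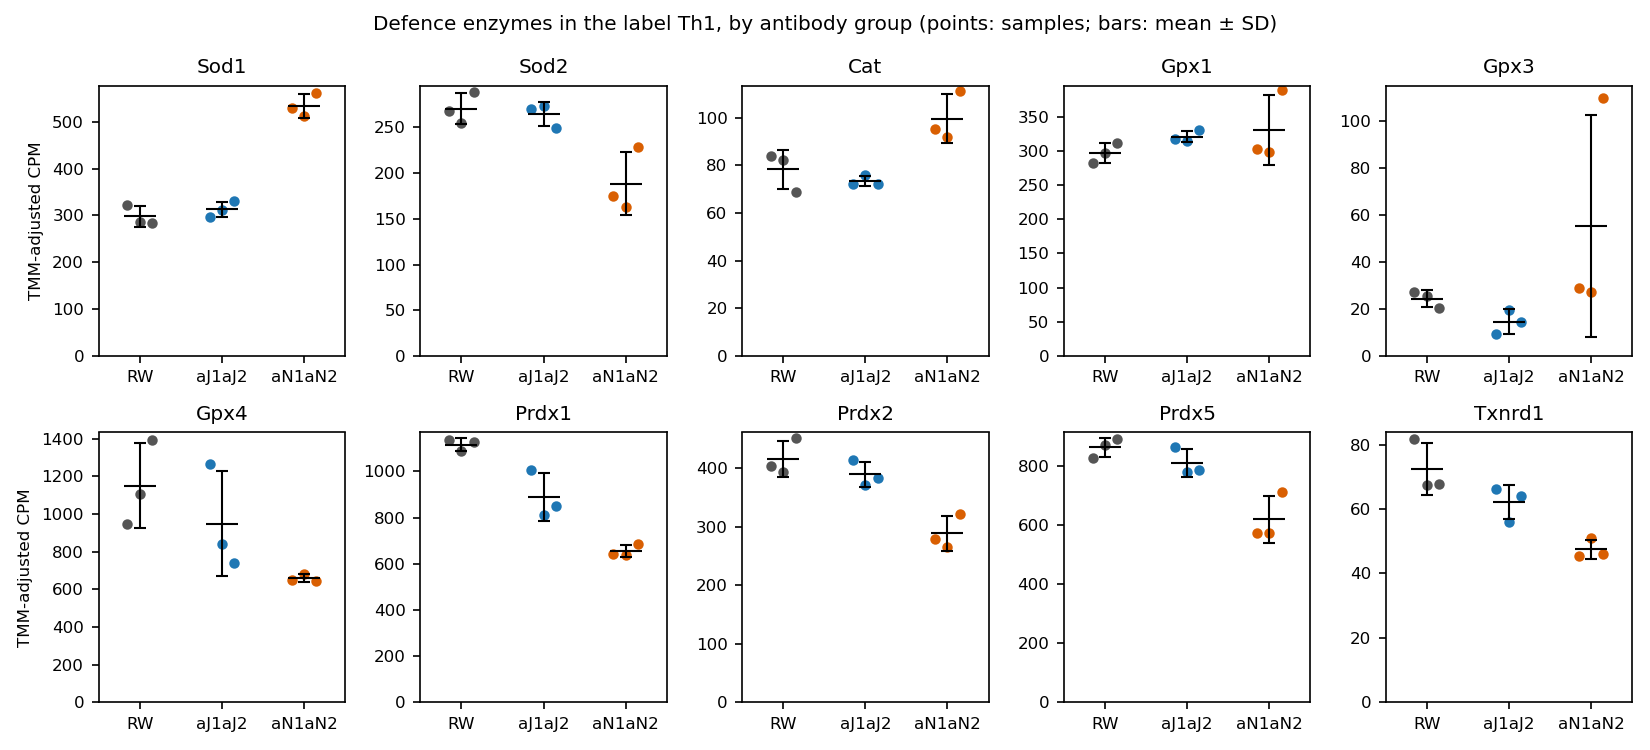
TMM-adjusted CPM of each enzyme in Th1, 1 panel per enzyme and 1 point per sample in the groups RW, aJ1aJ2 and aN1aN2, with bars at the mean ± SD. Sod1 is higher in the 3 aN1aN2 samples (511 to 562 CPM) than in any other sample, Prdx1 is lower in them (637 to 684 CPM), and Gpx3 stands apart in 1 aN1aN2 sample.

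Markers of other cell types in Th1 differed between RW and aN1aN2, for some sets without overlap. Endothelial markers (6) ranged in sum from 415 to 576 CPM in RW and from 99.7 to 443 in aN1aN2, with overlap. C cell markers (4) ranged from 428 to 1098 and from 987 to 1835, also with overlap. So did macrophage markers (5), from 38.7 to 86.7 and from 1.85 to 63.0. Parathyroid markers ranged from 10.0 to 48.5 and from 125 to 294, without overlap. In aJ1aJ2, C cell markers ranged from 41.5 to 2617 CPM, fibroblast markers from 7.21 to 83.3 and macrophage markers from 12.6 to 191. Schwann cell markers (5) ranged from 241 to 277 CPM in RW and from 110 to 135 in aN1aN2, and B cell markers (4, of which 1 was above 0) from 17.4 to 20.7 and from 37.6 to 52.7, both without overlap. The 8 thyrocyte markers summed to between 89754 and 97039 CPM in RW and between 97966 and 113564 in aN1aN2, without overlap. The 5 fibroblast markers summed to between 3.63 and 12.7 and between 8.21 and 12.9. The mean mitochondrial share was 9.45 to 10.2% and 9.49 to 10.1%. The part of these markers and of cell depth in the changes was not tested.

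Gpx3 in Th1 stood apart in 1 aN1aN2 sample. It was at 27.1, 25.6 and 20.3 CPM in RW and at 29.1, 27.3 and 110.0 in aN1aN2, with a log2 change of 1.02 that was not called (SE 0.40, adjusted p 0.0615, range over 12 alternatives 3.80e-06 to 0.784, with a call in 4 of them). Of the 91 Gpx3 UMIs in Th1 of aN1aN2 3, 71 (78.0%) lay in 1 cell that also held 1165 UMIs of Calca, the calcitonin gene of C cells. The cell with most Gpx3 held many Calca UMIs in other samples too, with 1285 to 2754 in RW, 6772 in aJ1aJ2 3 and 2496 in aN1aN2 2, but there it held 13.3 to 28.2% of the sample's Gpx3 UMIs. Without that cell the plain level fell from 104 to 23.1 CPM, inside the range of the other samples.

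Ligand blockade left smaller differences. In Th1 of aJ1aJ2 against RW, 0 of the 10 enzymes were called, by edgeR and by DESeq2, beside 0.612% of all genes (0.386% higher and 0.226% lower), and 1 had an unadjusted p under 0.05. That was Prdx1, at 1006, 810 and 850 CPM in aJ1aJ2 against 1087 to 1136 in RW, groups that did not overlap, with a log2 change of -0.33 (SE 0.10, adjusted p 0.152). Gpx4 was at 1265, 841 and 741 CPM in aJ1aJ2 (log2 change -0.28, adjusted p 0.546), with aJ1aJ2 1 among the RW values and the other two below them.

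Both values moved with single samples left out, from -0.43 to -0.27 for Prdx1 and from -0.54 to -0.11 for Gpx4. Gpx4 was higher in series A, RW 3 and aJ1aJ2 1, at 1395 and 1265 CPM in Th1 against 741 to 1104 in series B. In EC1 these 2 samples were at 605 and 639 CPM against 415 to 433, and in F at 489 and 454 against 326 to 350. In EC4 and S the series A samples did not all lie above series B. The cause was not tested. Without aJ1aJ2 1, Prdx1 was called at -0.43 (adjusted p 0.0122) and Gpx4 at -0.54 (adjusted p 0.0291), beside 4.9% of all genes in that fit. Within series B, RW 1 and 2 against aJ1aJ2 3 and 4, Prdx1 was called at -0.42 (adjusted p 0.00762) and Gpx4 at -0.37 (adjusted p 0.0377), beside 5.7% of all genes. These were 2 of 13 alternatives for each enzyme, and the other 11 gave no call, the series term included (adjusted p 0.0900 for Prdx1 and 0.189 for Gpx4). Series A has 1 sample per group and gives no test of its own. The other eight enzymes had log2 changes from -0.64 for Gpx3 (adjusted p 0.581) to 0.11 for Gpx1.

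Receptor blockade was then compared with ligand blockade. In Th1 of aN1aN2 against aJ1aJ2, 8 of the 10 enzymes were called, 3 higher and 5 lower, beside 22.3% of all genes (10.8% higher, 11.5% lower). Sod1 was higher in aN1aN2 by 0.77 on the log2 scale (adjusted p 5.69e-05), with aJ1aJ2 at 297, 311 and 330 CPM, no sample of which reached the aN1aN2 range. Cat was higher by 0.42 (adjusted p 0.0260), a call lost in 7 of 11 alternatives (adjusted p up to 0.192), and Gpx3 by 1.66 (adjusted p 0.0130), the latter with the aN1aN2 3 value described above. Without aN1aN2 3 the Gpx3 difference was 0.87 (adjusted p 0.0382), over single samples left out it ranged from 0.87 to 2.05, and it was called in each of 11 alternatives. Sod2 (-0.51, adjusted p 0.00818), Gpx4 (-0.52, adjusted p 0.0414), Prdx1 (-0.44, adjusted p 0.00573), Prdx2 (-0.44, adjusted p 0.00822) and Prdx5 (-0.39, adjusted p 0.0146) were lower. The call of Gpx4 was lost in 4 of 11 alternatives, all of them leaving out 1 sample (adjusted p up to 0.187). With single samples left out its change ranged from -0.66 to -0.26. The calls of Sod2 and Prdx5 were lost in 2 alternatives and that of Prdx2 in 1. Txnrd1 (-0.37, adjusted p 0.0703) and Gpx1 (0.03, adjusted p 0.877) were not called. The number of enzymes called was 4 without aN1aN2 1, beside 14.6% of all genes in that fit, and 4 without aN1aN2 2, beside 14.1%. This comparison and the first share the aN1aN2 samples.

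Outside Th1, the question was whether other thyroid cells show the same shifts. Receptor blockade could be tested in 8 other labels, where 6 enzyme changes were called (7 by DESeq2), 4 of them in EC1, 1 in EC2 and 1 in F. In 2 of the 6, Gpx3 in EC1 and in EC2, every RW sample had under 10 UMIs, the minimum count of the filter, so that Gpx3 passed through the treated samples and had to differ. These are given below as values without a test, which leaves 4 calls. The background of called genes was 17.8% in EC1, 15.5% in EC2 and 19.8% in F. Called higher were 8.83%, 8.85% and 9.17% of genes in EC1, EC2 and F, and called lower 8.93%, 6.62% and 10.6%. The counts of enzymes called were 0 in EC3 (background 5.91%), EC4 (21.1%), Th3 (5.03%), Eryth1 (7.69%) and Eryth2 (8.6%), where 2, 0, 2, 0 and 2 enzymes had an unadjusted p under 0.05. Of the 10 enzymes, 10 passed the filter on low counts in EC1, EC3 and F, 9 in Th3, 8 in EC2, 6 in EC4, 3 in Eryth2 and 1 in Eryth1. M was not compared because the aN1aN2 samples held 3 to 10 such cells each, against 53 to 77 in RW.

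In EC1, the largest endothelial label, Sod1 moved opposite to Th1. It was at 207, 204 and 155 CPM in RW and at 130, 147 and 98.7 in aN1aN2, without overlap (log2 change -0.57, SE 0.17, adjusted p 0.0208). That call was lost without RW 1, RW 2, aN1aN2 1 or aN1aN2 3, with adjusted p up to 0.122. Prdx2 was at 237, 212 and 248 CPM in RW and at 165, 164 and 166 in aN1aN2 (-0.50, SE 0.14, adjusted p 0.0120), and Prdx1 at 791, 798 and 826 and at 599, 611 and 618 (-0.40, SE 0.12, adjusted p 0.0178). The call of Prdx1 was lost after thinning and without aN1aN2 1 or aN1aN2 2, with adjusted p up to 0.0674.

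Other measures of EC1 moved with these changes, and for each the RW and aN1aN2 samples did not overlap. The 6 endothelial markers summed to between 14329 and 15921 CPM in RW and between 10767 and 11298 in aN1aN2, the 5 macrophage markers between 64.3 and 169 and between 0 and 6.33, and the 8 thyrocyte markers between 746 and 1021 and between 1372 and 1981. Parathyroid markers summed to between 47.1 and 92.3 CPM in RW and between 228 and 334 in aN1aN2, and C cell markers between 28.4 and 68.8 and between 130 and 187. EC1 cells had medians of 4679 to 4968 UMIs in RW and 2518 to 3534 in aN1aN2, and mean mitochondrial shares of 5.31 to 7.05% and 4.12 to 4.65%. Their part in the changes was not tested.

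Free thyrocyte RNA was gauged from Tg. Were all Tg in EC1 taken from Th1 cells of the same sample, the Sod1 that came with it would make up 1.32 to 1.65% of the EC1 level in RW and 4.54 to 7.91% in aN1aN2. In EC4 the same reckoning gives 40.2 to 140% of Prdx5 in RW, so Prdx5 there is not shown to be endothelial.

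**Figure D3:**
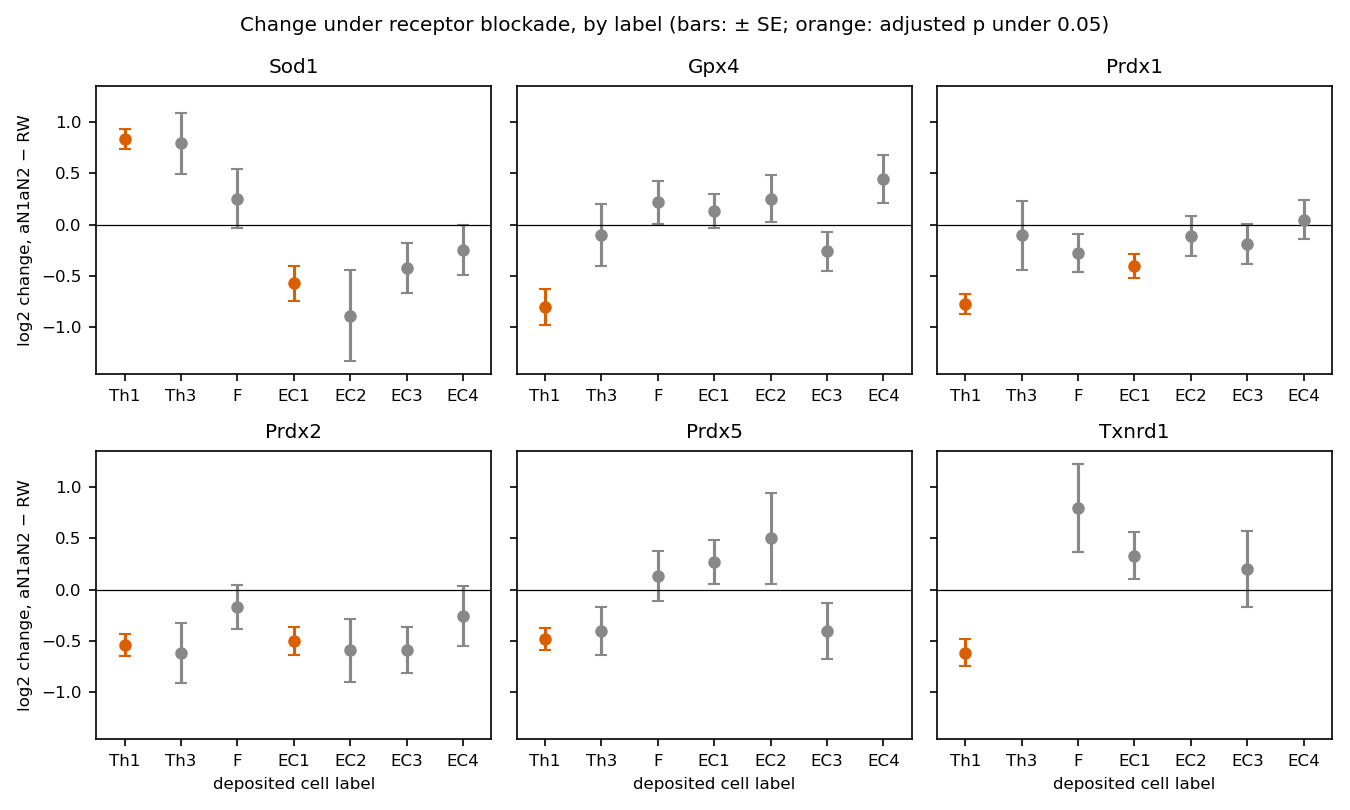
Log2 change of aN1aN2 against RW (vertical axis, bars ± SE) for Sod1, Gpx4, Prdx1, Prdx2, Prdx5 and Txnrd1 in the labels in which each was tested, among Th1, Th3, F and EC1 to EC4, with orange points where the adjusted p is under 0.05. Sod1 lies above 0 in Th1 (0.84) and below 0 in EC1 (-0.57), while Gpx4 is called in Th1 alone (-0.80) of these labels.

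In EC1 of aN1aN2 against aJ1aJ2, 2 enzymes were called beside 13.5% of genes (6.95% higher, 6.59% lower): Sod1 (-0.77, SE 0.17, adjusted p 0.00323) and Prdx2 (-0.50, SE 0.14, adjusted p 0.0178). The call of Prdx2 was lost in 4 of 13 alternatives, without aJ1aJ2 4 and without each aN1aN2 sample (adjusted p up to 0.0673). The other calls of this comparison were Gpx3 in EC2 and F, described below, making 4 in all (4 by DESeq2), and there were none in EC3 (background 1.27%), EC4 (17.2%), Th3 (1.44%), SM (3.66%), Eryth1 (5.59%) and Eryth2 (9.32%). Ligand blockade against RW gave 1 call in 11 other labels (1 by DESeq2), again Gpx3 in F, beside 0.579% of genes there (0.393% higher, 0.186% lower). It gave none in EC1 (background 1.43%), EC2 (1.91%), EC3 (0.0618%), EC4 (0.903%), Eryth2 (0.358%) and Eryth1, M, S, T1 and Th3 (0.0% each). Enzymes with an unadjusted p under 0.05 numbered 2 in EC1, 1 in F and 1 in T1 and 0 in the other eight.

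Whether a change differed from that in Th1 was tested as the interaction of label and group, with the sample as a block. For receptor blockade 13 such differences were called (10 by DESeq2). In 4 of them, Gpx3 in EC1 and EC2, Sod1 in EC2 and Prdx5 in EC4, the lower group had under 10 UMIs in every sample of the label, so they are given as values only, and 9 remained. These stood beside backgrounds of 8.69% of genes in EC1, 3.46% in EC2, 3.15% in EC3, 5.54% in EC4, 5.43% in F, 0.0614% in Eryth2 and 0.0% in Eryth1 and Th3. The change of Sod1 was lower than in Th1 by -1.46 (SE 0.17, adjusted p 6.32e-06) in EC1, -1.28 (adjusted p 0.0108) in EC3 and -1.0 (adjusted p 0.0272) in EC4. The EC1 and EC3 calls were made in each alternative run, with adjusted p up to 0.000133 in EC1 and 0.0490 in EC3. In EC3 the aN1aN2 samples held 9 to 22 Sod1 UMIs. The EC4 call was lost in 7 of 11, among them without each single sample of RW and aN1aN2 (adjusted p up to 0.183). In EC2, where the aN1aN2 samples held 4 to 8 Sod1 UMIs, the difference was -1.75. In F the difference was -0.64 (adjusted p 0.277) and in Th3 -0.20 (adjusted p 0.956), neither called. In Th3 itself Sod1 was at 339, 335 and 239 CPM in RW and 677, 507 and 393 in aN1aN2, which did not overlap but were not called (log2 change 0.79, SE 0.30, adjusted p 0.154).

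The change of Gpx4, which fell in Th1, was higher than there in EC1, EC4 and F, by 0.87 (adjusted p 0.000129), 1.34 (adjusted p 2.04e-05) and 0.96 (adjusted p 0.00142). The EC1 and EC4 calls were made in each of 11 alternatives, and that in F was lost in 3 of 10 (adjusted p up to 0.0535). Txnrd1 differed in EC1 by 0.90 (adjusted p 0.0173, lost in 3 of 11 alternatives, up to 0.158) and Prdx1 in EC4 by 0.91 (adjusted p 0.00469, lost in 1 of 11, without RW 1, at 0.0579). The value for Prdx5 in EC4, with 2 to 5 UMIs per RW sample, was 1.67. It did not pass the filter on low counts in EC4 itself and entered that fit through its counts in Th1. For ligand blockade 2 differences were called, both of Gpx3, in F at 1.84 (adjusted p 0.00133, background 0.338%) and in EC2 at 2.89 (background 0.55%), where the RW samples held 0 and 4 UMIs, so that 1 remained, and DESeq2 called 0. The Gpx3 differences subtract its change in Th1, which for receptor blockade rests on aN1aN2 3. In F the receptor difference was 1.13 (adjusted p 0.0160), 1.67 without aN1aN2 3 (adjusted p 5.88e-06) and 0.58 without aN1aN2 2 (adjusted p 0.427), and it was lost in 5 of 10 alternatives, DESeq2 included. The backgrounds of the other labels were 0.369% in EC1, 0.0198% in EC3, 0.197% in EC4, 0.118% in S, 0.198% in T1, 0.0122% in Th3 and 0.0% in M, Eryth1 and Eryth2.

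Gpx3 had its highest level and its clearest change in F. It was at 1604, 937 and 689 CPM in RW, at 2790, 2166 and 2010 in aJ1aJ2 and at 3830, 4697 and 4904 in aN1aN2. The 3 groups did not overlap at any point, with RW lowest and aN1aN2 highest. Against RW the log2 change was 2.05 in aN1aN2 (SE 0.25, adjusted p 1.32e-05) and 1.11 in aJ1aJ2 (SE 0.25, adjusted p 0.0493), and between the blockades it was 0.95 (SE 0.25, adjusted p 0.0121), beside 16.0% of genes called there (7.67% higher, 8.35% lower).

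The receptor result held in each of 13 alternatives, while the ligand result was lost in 8 of 14, with adjusted p up to 0.242. The difference between the blockades was lost without aJ1aJ2 3 (adjusted p 0.0541) or aJ1aJ2 4 (adjusted p 0.0567). The transcript was spread over many cells: RW 3 had the lowest share of F cells with a Gpx3 UMI, 19 of 26, against 31 of 33 in aN1aN2 3, and the highest single cell held 4.90 to 22.1% of a sample's Gpx3 UMIs. Fibroblast markers in F summed to 31070 to 34451 CPM in RW, 27100 to 34765 in aJ1aJ2 and 31966 to 37469 in aN1aN2, with all 5 above 0 in every sample. Erythroid markers in F ran from 109 to 296 CPM in RW, 161 to 982 in aJ1aJ2 and 851 to 43673 in aN1aN2. Mural markers ran from 139 to 285 CPM in RW, 130 to 167 in aJ1aJ2 and 103 to 113 in aN1aN2. F cells had medians of 5561, 8332 and 10026 UMIs in RW, 7910, 6314 and 5232 in aJ1aJ2 and 2921, 3864 and 2295 in aN1aN2. The aN1aN2 cells were shallower than those of every other sample, and the part of these markers and of depth in the result was not tested.

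**Figure D4:**
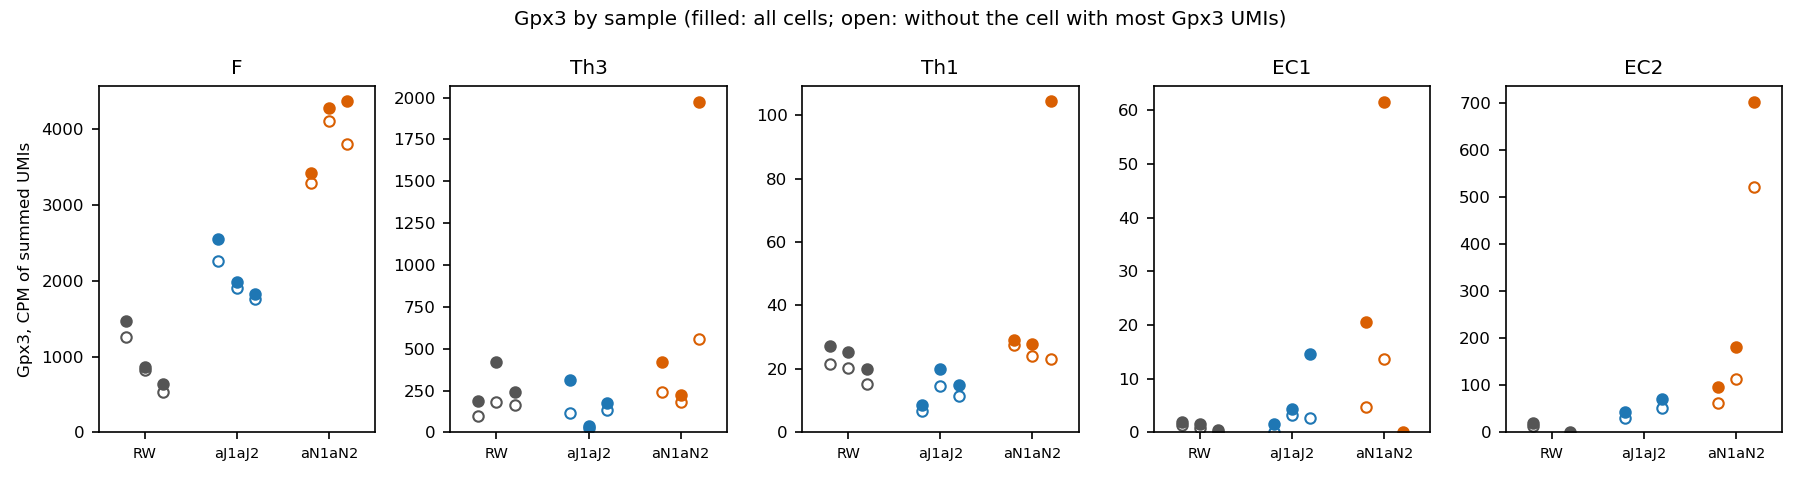
Gpx3 level (CPM on the plain total) by sample and group in F, Th3, Th1, EC1 and EC2, with filled points for all cells and open points without the cell that holds most Gpx3 UMIs, and an axis of its own for each label. In F the groups do not overlap with or without that cell, while in Th1 the high aN1aN2 sample drops from 104 to 23.1 CPM and in Th3 from 1972 to 559.

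In the endothelial labels the Gpx3 values rested on few molecules. In EC1 it was at 2.00, 1.54 and 0.454 CPM in RW (3, 2 and 1 UMIs) and at 20.6, 61.7 and 0 in aN1aN2, groups that overlapped. Of 9 UMIs in aN1aN2 1, 7 lay in 1 cell with 90 UMIs of the fibroblast gene Dcn, and of 23 in aN1aN2 2, 18 lay in 1 cell with 82 Dcn UMIs.

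In EC2 Gpx3 was at 23.6 and 0 CPM in the RW samples (4 and 0 UMIs), at 52.1 and 90.6 in aJ1aJ2 and at 116, 226 and 851 in aN1aN2 (9, 15 and 36 UMIs over 5, 4 and 5 cells). All 3 aN1aN2 samples were above the others, with aN1aN2 3 far above. Against aJ1aJ2, whose samples held 15 and 35 UMIs, the log2 change was 2.19 (adjusted p 0.0212, background 10.5%, with 5.78% higher and 4.74% lower). The highest of the Gpx3 cells in EC2 of aN1aN2 held 0 to 3 Dcn UMIs. The 5 mural markers summed in EC2 to between 583 and 2017 CPM in RW, between 1779 and 2149 in aJ1aJ2 and between 1190 and 7067 in aN1aN2, and Gpx3 was at 439 CPM in SM, the label with mural markers, pooled over all samples. The 6 endothelial markers summed to between 5353 and 6092 CPM in RW, 5357 and 5411 in aJ1aJ2 and 4400 and 4893 in aN1aN2. The 8 thyrocyte markers summed to between 736 and 763 CPM in RW, 661 and 1054 in aJ1aJ2 and 923 and 1596 in aN1aN2. For parathyroid markers the ranges were 42.8 to 133, 71.5 to 259 and 195 to 437 CPM in the same order. For erythroid markers they were 411 to 494, 338 to 11481 and 1341 to 1772 CPM. The part of these markers in the change was not tested. Against aJ1aJ2 the change ranged from 1.18 without aN1aN2 3 (adjusted p 0.191) to 2.72 without aN1aN2 1. The change against aJ1aJ2 was lost in 3 of 9 alternatives, among them DESeq2 (adjusted p up to 0.247). In Th3 of aN1aN2 3, 94 of 124 Gpx3 UMIs lay in 1 of 3 positive cells, and without it the plain level fell from 1972 to 559 CPM.

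The enzymes' partners were read in Th1 from lists of other genes of the same chemistry, 7 of which are given here. The counts below stand beside 34.4% of all genes called in Th1 (17.1% higher, 17.3% lower), and a list's share near these says nothing particular about the list. After receptor blockade the list of other peroxide and superoxide enzymes had 1 gene called higher and 5 lower of 9 tested, with a median log2 change of -0.50. Sod3, the extracellular superoxide dismutase, fell from 106 ± 11.2 to 25.4 ± 2.09 CPM (SD, n = 3, log2 change -2.09, adjusted p 7.70e-07), and Gpx2, the epithelial glutathione peroxidase, fell from 457 ± 72.7 to 114 ± 13.7 (-2.01, adjusted p 2.87e-06). Prdx6, the 1-cysteine peroxiredoxin, rose from 366 ± 55.8 to 1148 ± 237 CPM (1.65, adjusted p 1.79e-06), opposite to the other peroxiredoxins above. Srxn1, which repairs over-oxidised peroxiredoxins, fell (-1.37, adjusted p 0.00342). Sod3 was also lower in aJ1aJ2, at 54.9 ± 14.0 CPM (-0.94, adjusted p 0.0123), beside 0.612% of all genes called. It was the only called gene of these 7 lists under ligand blockade. Without aJ1aJ2 3 its call was lost, as the 1 gene called over all genes was then a higher one.

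Of 9 thioredoxin and glutaredoxin genes, 2 were called higher and 3 lower (median -0.22). Txnip, the thioredoxin-binding protein that blocks thioredoxin, rose from 327 ± 92.5 to 2944 ± 31.9 CPM (3.18, adjusted p 1.68e-07), and Txn1, thioredoxin itself, fell from 1140 ± 40.5 to 497 ± 42.9 (-1.20, adjusted p 6.95e-07). Glrx5 fell by 0.69 and Glrx rose by 0.52 on the log2 scale.

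The NADPH supply list had 0 called higher and 4 lower of 7 (median -0.61): Taldo1 (-0.98), G6pdx (-0.67) and Pgd (-0.66) of the pentose phosphate pathway, and the malic enzyme Me1 (-0.61). The groups overlapped for G6pdx, whose adjusted p of 0.0467 was close to the threshold. Of 9 tested genes of glutathione synthesis and transfer, 1 was called higher, the transferase Gstm1 (1.36), and 2 lower, Mgst3 (-0.65) and Gclm (-0.45, adjusted p 0.0328, with overlapping groups), with a median of -0.28, a share called close to that of all genes. Of 9 genes that regulate NRF2 or are its targets, 0 were called higher and 2 lower, with a median of -0.19. The 2 were Hmox1 (-1.54) and the ferritin chain Ftl1 (-0.36, adjusted p 0.0490), a smaller share than that of all genes. The list mixes regulators, such as Nfe2l2 and Keap1, with targets. Prdx1 and Txnrd1, each with a promoter that carries the motif, are not in it. Its share therefore does not describe NRF2 targets as a whole.

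Of the 11 oxidant source genes, 4 were tested, with 1 called higher, the xanthine dehydrogenase Xdh (2.56), and 2 lower, the dual oxidase maturation factor Duoxa2 (-0.74, adjusted p 0.0229) and Cyba (-0.62). Duox2, the dual oxidase itself, had a log2 change of -0.35 that was not called (adjusted p 0.310), and its groups overlapped. Of 8 tested genes of selenoprotein synthesis and transport, 1 was called higher, the selenium carrier Selenop (1.76), and 2 lower, Selenof (-0.92) and Pstk (-0.79). All medians stand beside 0.02 over all genes tested.

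**Figure D5:**
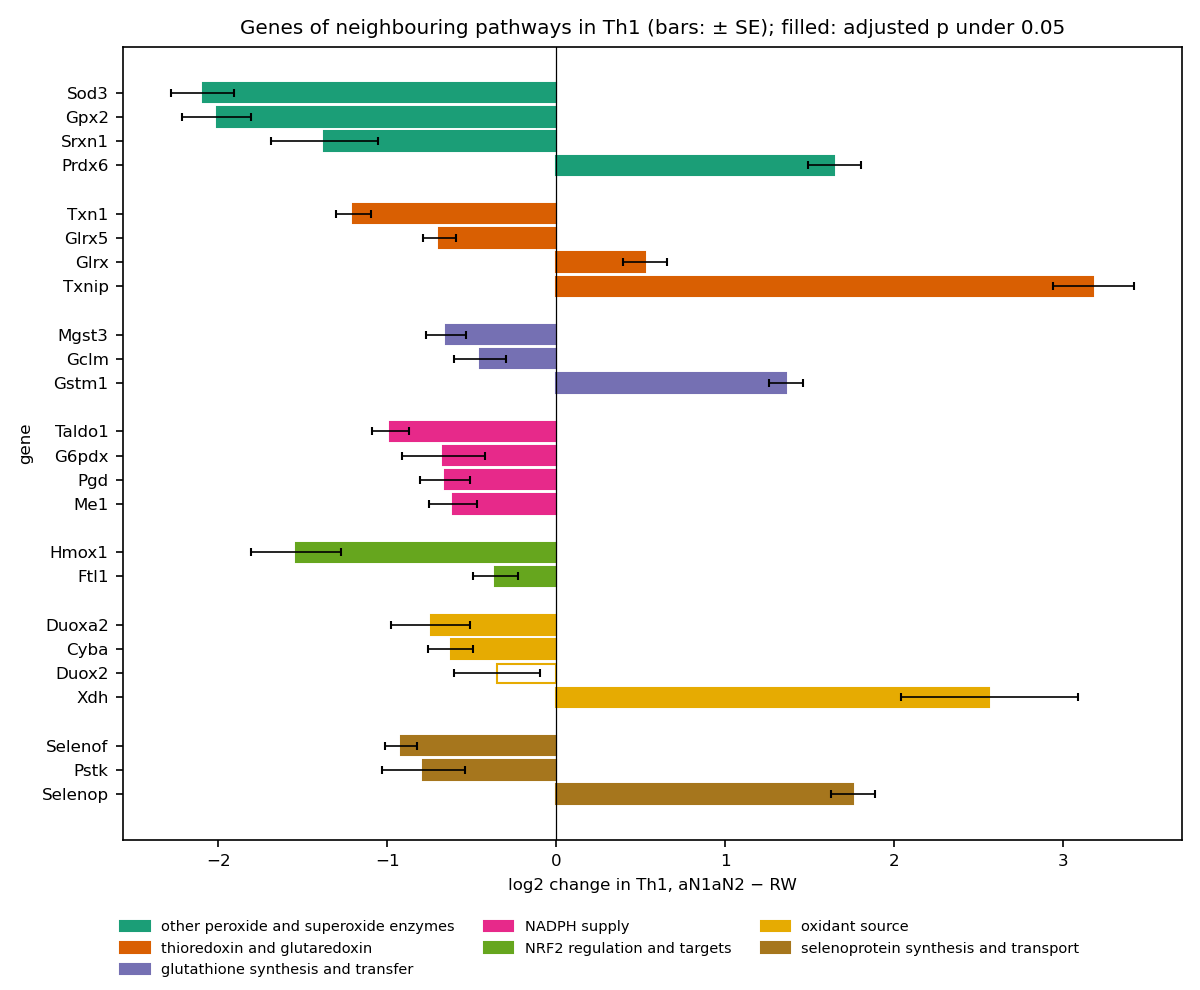
Log2 change in Th1 (horizontal axis), aN1aN2 against RW, of the named genes of the 7 lists, 1 bar per gene coloured by list, filled where the adjusted p is under 0.05, with whiskers of ± SE. Txnip reaches furthest up at 3.18 and Sod3 furthest down at -2.09, and the 4 genes of NADPH supply all lie below 0.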

How the data were processed

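The authors deposited raw UMI counts per gene and cell from 10x Genomics 3' v2 libraries, with an annotation table of samples and cell labels. Reads were processed with Cell Ranger against GRCm38, per the submitters' processing notes. The version, gene annotation, strand use, cell calling and making of the labels are not given in the sources used here. In 2619 annotation lines an unquoted comma had shifted the columns, which was corrected on reading. Symbols matched 52403 of 52636 identifiers. No doublet caller was run.

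Counts were summed per sample and label, for samples with at least 20 cells of the label and labels with at least 2 such samples in each compared group. Sums were tested with edgeR 4.0.16 (R 4.3.3): filterByExpr, TMM, 1 quasi-likelihood fit per label over its eligible samples with a mean per group, two-sided, with Benjamini-Hochberg adjustment over all genes tested. All 9 samples and 3 groups entered for Th1, Th3, EC1, EC4, F, Eryth1 and Eryth2, 8 samples for EC3 and 7 for EC2, and 2 groups for M, S, T1 and SM. Interaction fits held Th1 and 1 other label with the sample as a block. Standard errors are the absolute log2 change over the square root of F. The test was checked on simulated counts. Intervals cover counting error only. Counts of any pair of replicates in Th1 differed by more than sampling noise (chi-square per degree of freedom 1.66 to 8.08).

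The enzymes and the gene lists were chosen with earlier results of these data known. Named were all 10 enzymes in Th1, the enzymes called in other labels, and up to 4 called genes per list with the largest change, plus the genes most alike across labels. Alternatives were DESeq2 1.42.0, its size factors, no filter, 2-group fits, thinned counts, cell minimums of 10 and 50, title series, a replicate block and leaving out each sample. Some results on genes outside the enzymes, 1 gene list among them, are not reported here.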

Additional observations from a re-analysis of the deposited data

Results flagged for a closer look

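In each result here the change of an enzyme in another label differed from its change in Th1, by edgeR's quasi-likelihood test of the interaction with Benjamini-Hochberg adjustment. Each value is the log2 change in the label minus that in Th1. After receptor blockade Sod1 differed by -1.46 in EC1, -1.75 in EC2, -1.28 in EC3 and -1.0 in EC4, with a called rise in Th1 and a called fall in EC1. Gpx4 differed by 0.87 in EC1, 1.34 in EC4 and 0.96 in F. Txnrd1 differed by 0.90 in EC1, Prdx1 by 0.91 in EC4 and Prdx5 by 1.67 in EC4. Gpx3 differed by 3.45 in EC1, 3.46 in EC2 and 1.13 in F. After ligand blockade Gpx3 differed by 2.89 in EC2 and 1.84 in F. In 5 of these, Gpx3 in EC1 and EC2 (both blockades in EC2), Sod1 in EC2 and Prdx5 in EC4, the lower group had under 10 UMIs in every sample of the label, so they are values and not read as tests. With single samples left out, the Gpx3 values for receptor blockade ranged from 1.83 to 4.62 in EC1 and from 2.65 to 9.92 in EC2, and that for ligand blockade in EC2 from 2.29 to 9.52. The highest in EC2 came without RW 1, the only RW sample there with Gpx3 UMIs, and the EC1 value was past the threshold in 5 of 11 alternatives and the ligand EC2 value in 3 of 8. Prdx5 did not pass the filter on low counts in EC4 and entered that fit through Th1, and RNA that comes with Tg would make up 40.2 to 140% of its level there in RW. The Gpx3 values for receptor blockade subtract a Th1 change that falls from 1.02 to 0.23 without aN1aN2 3, and in F the difference was lost in 5 of 10 alternatives. Sod1 in EC4 was lost in 7 of 11.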

How the results depend on the processing

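The numbers of enzymes called were recomputed under each alternative, the Gpx3, Sod1 and Prdx5 values with under 10 UMIs included. In Th1, receptor blockade against RW gave 7 to 8 calls with single samples left out (8 with all), beside 24.7 to 30.4% of all genes in the same fits, ligand blockade against RW 0 to 2 (0 with all), beside 0.00927 to 4.9%, and 2 in series B only, beside 5.7%, and the blockades against each other 4 to 7 (8 with all), beside 14.1 to 20.4%. In the other labels, with the share of all genes over the same labels in brackets, ligand blockade gave 1 call (0.677%), but 0 with DESeq2 size factors (0.674%), 3 with no filter (0.715%), 0 with only the 2 groups (0.414%), 6 with the series as a term (3.19%), 0 with at least 50 cells (1.08%), and 0 to 5 with single samples left out (0.267 to 3.96%). Receptor blockade gave 6 (14.5%), but 3 after thinning (17.7%) and 4 to 6 with single samples left out (9.18 to 12.7%), and the blockades against each other gave 4, but 2 with at least 50 cells (11.6%) and 3 to 4 with single samples left out (6.22 to 11.8%). Interactions numbered 2 for ligand blockade (0.173%), but 0 with DESeq2 (0.0251%), 1 with at least 10 cells (0.148%), 0 with at least 50 (0.142%) and 1 to 3 with single samples left out (0.0836 to 0.45%), and 13 for receptor blockade (3.55%), but 8 with at least 50 cells (3.15%) and 7 to 12 with single samples left out (2.27 to 2.71%). Fewer labels are tested at 50 cells; the cause was not tested otherwise. The highest label stayed the same for 8 to 10 enzymes with single RW samples left out, for 7 on totals without globins and Tg or by the mean per cell, for 9 with at least 10 cells (Txnrd1 in Th2), and for 8 over all 9 samples (Prdx1 in Th3, Prdx2 in T2). Small changes reversed sign: Gpx1 in Th1 between the blockades (0.03) ranged from -0.0913 without aN1aN2 3 to 0.110 without aN1aN2 2, and Sod2 under ligand blockade (-0.04) from -0.0773 without RW 2 to 0.0153 without RW 3, with 0.00156 without aJ1aJ2 4 and 0.000132 in series B only. Over all genes in Th1, the 65 calls of ligand blockade ran from 1 to 530 with single samples left out and were 649 in series B only and 424 with no filter. RW and aN1aN2 share only the numbers 1 and 2 (correlation of deviations -0.04 over 10627 genes). With the number as a replicate block, 7 enzymes were called in Th1, without Cat (log2 change 0.17, adjusted p 0.375 by edgeR), and 6 in the other labels.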
